A study of Lithospermum officinale with 3 samples.

Results

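RNA sequencing was used to profile the leaf, the stem and the root of *Lithospermum officinale*, a medicinal herb of the borage family. These 2-year-old plants grew in the open and received no treatment, and 1 library stood for each organ. The measured features were 77047 unigenes, transcript sequences put together from the reads themselves, with no genome as a guide. Leaf-peaked unigenes are those with enough leaf reads whose abundance was at least 4 times higher in leaf than in stem and than in root, and 109 of the 77047 met that rule.

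The rule worked on RSEM expected counts, the estimated number of reads per unigene. The 100 unigenes with the largest count summed over the 3 libraries were set aside. Their share was 59.0% of all reads counted in leaf, 43.5% in stem and 56.7% in root. Every other count was divided by what was left of its library, which was 1432056 counts in leaf, 2525988 counts in stem and 4351427 counts in root. The result is called the scaled count below and is given in CPM, that is, for every 1000000 counts left. A member had at least 50 leaf counts and a scaled count in leaf at least 4 times that in stem and at least 4 times that in root, with a count of 0 taken as 0.5. The ratios of leaf to stem and of leaf to root were thus what the members were selected on, and both are given as a description, without a test.

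The leaf is the main organ of photosynthesis and carries an epidermis with cuticle and hairs, whereas the stem holds green cortex beside vascular and woody tissue, and the root has no photosynthetic cells. Leaf and green stem thus both hold photosynthetic cells. Plants of this genus are known for naphthoquinone pigments of the shikonin type, made in the outer layers of the root, and for caffeic acid esters such as rosmarinic acid found in several organs. The files used here pair no gene names or sequences with the IDs, so functions, chromosome positions and leaf marker genes were not analysed here, and members are called by their ID. In tissue of mixed cell types, fewer cells of a type and less RNA per cell cannot be told apart.

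The 109 leaf-peaked unigenes together held 29754 leaf counts, 8799 stem counts and 3069 root counts. That was 2.08% of the leaf counts outside the 100 most counted unigenes (95% exact binomial interval 2.054% to 2.101%), against 0.348% in stem (0.341% to 0.356%) and 0.0705% in root (0.0681% to 0.0731%). Intervals in this text cover counting error only, since 1 library per tissue gives no spread between plants and duplicate reads of a molecule are not marked in the tables. The median scaled count over the members was 78.9 CPM in leaf, 14.3 CPM in stem and 1.84 CPM in root. These medians, each taken separately, were stepped over the 3 organs, with stem between leaf and root, although root lay above stem in 4 members. Of the summed scaled counts of a member over the 3 organs, a median of 82.5% lay in leaf, 15.4% in stem and 1.20% in root. The leaf share ran from 71.1% to 96.2%. The 2 folds of the rule set a floor under the leaf share, so these shares describe the selection. Over all 6402 unigenes outside the 100 most counted with 50 or more leaf counts, the medians were 34.3%, 32.7% and 30.8%.

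**Figure D1:**
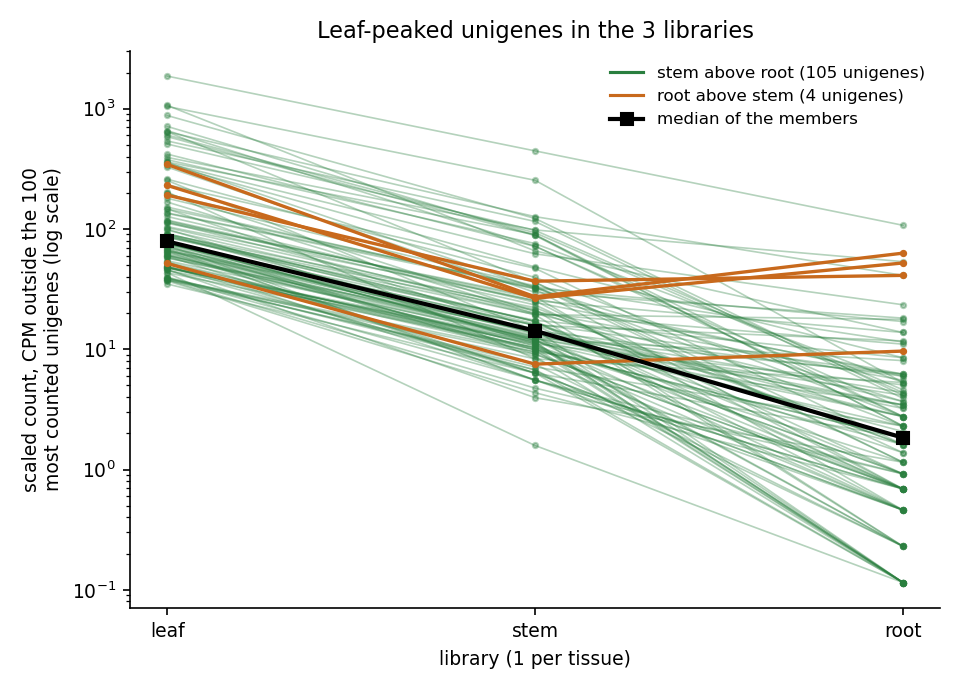
Scaled counts (CPM outside the 100 most counted unigenes, log scale) of each leaf-peaked unigene in the leaf, stem and root libraries, with a count of 0 drawn at 0.5 counts. Lines join the values of 1 unigene, green where stem lay above root (105) and orange where root lay above stem (4), and black squares give the medians of 78.9, 14.3 and 1.84 CPM.

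The 4-fold step over stem was the narrow gate, and the step over root was passed by most unigenes that passed it. Among the 6402 unigenes outside the 100 most counted that had 50 or more leaf counts, 115 (1.80%) reached 4-fold over stem, 1571 (24.5%) reached 4-fold over root, and the 109 members (1.70%) reached both. Over the members the median ratio was 5.35 for leaf over stem and 71.3 for leaf over root, or 57.7 over root with root counts of 0 set at the limit of 3 counts that a 0 allows. Over all 6402 the medians were 1.01 for leaf over stem and 1.13 for leaf over root. The ratio of leaf to stem lay between 4 and 5 in 42 members, between 5 and 8 in 43 and at 8 or more in 24, of which 5 reached 16. The ratio of leaf to root was much more spread, from 4.42 upward. It lay between 4 and 8 in 10 members, between 8 and 16 in 12, between 16 and 100 in 41 and at 100 or more in 46.

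**Figure D2:**
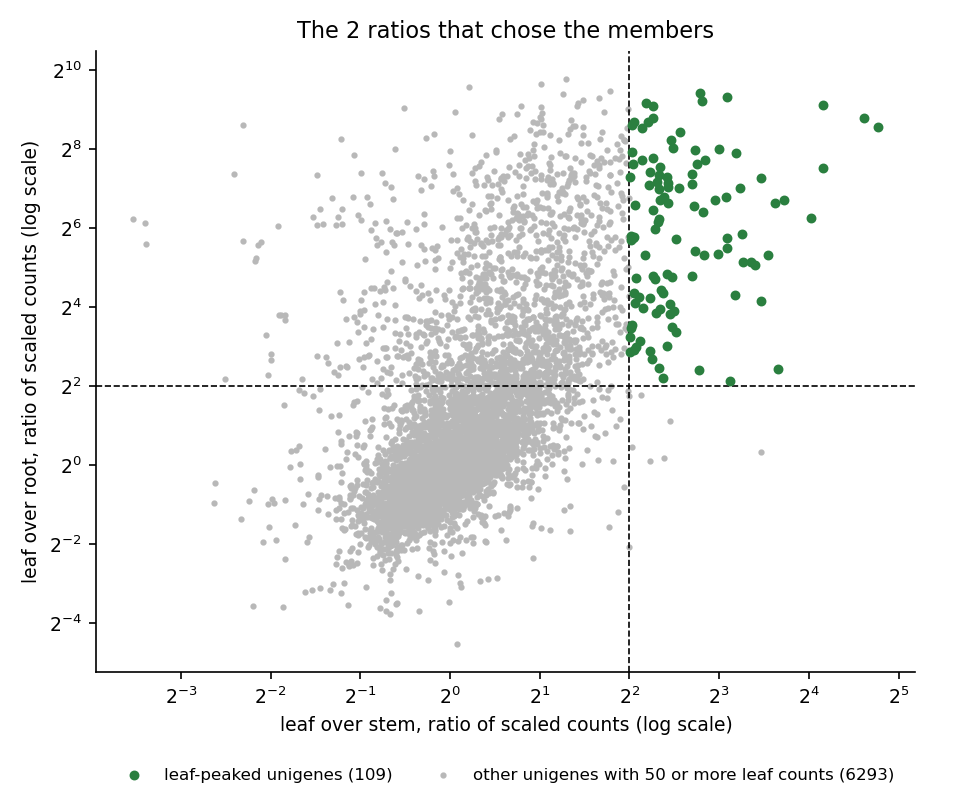
Ratio of scaled counts of leaf to stem (horizontal, log scale) and of leaf to root (vertical, log scale) for the 109 leaf-peaked unigenes (green) and the other unigenes with 50 or more leaf counts (grey), with dashed lines at 4. The members form the right edge of the cloud and extend upward from a leaf to root ratio of 4.42.

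The members with the firmest excess in leaf carried consecutive ID numbers, Unigene45818 and Unigene45819. Unigene45818 (1263 nt) had 291 counts in leaf, 21 counts in stem and 2 counts in root, so that nearly all of its counts came from leaf although leaf was the shallowest library. Its scaled count in leaf was 24.4 times that in stem (95% counting interval 15.7 to 40.1) and 442 times that in root (121 to 3668). Unigene45819 (1348 nt) had 921 counts in leaf, 91 counts in stem and 5 counts in root. Its ratios were 17.9 to stem (14.4 to 22.4) and 560 to root (239 to 1728). The intervals of this pair overlapped for both ratios, and whether these IDs stand for separate genes, variants or pieces of 1 gene cannot be read from the files. A 1248 nt member had the largest point ratio of leaf to stem, 27.3, but on 62 counts in leaf, 4 counts in stem and 0 counts in root, and its interval ran from 10.2 to 103. Another, of 2043 nt, had 363 counts in leaf, 36 counts in stem and 6 counts in root, which made 17.8-fold over stem (12.6 to 25.8).

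The members of highest level were Unigene51538 and Unigene39623, in TPM, a level that takes unigene length into account. Unigene51538 (737 nt) stood at 697 TPM in leaf, at 241 TPM in stem and at 5.74 TPM in root, from 1497, 642 and 23 counts. Its ratio of leaf to stem in scaled counts was 4.11 (3.75 to 4.52), close to the threshold, while that to root was 198 (131 to 313). In TPM its leaf level was under 4 times its stem level. Unigene39623 (797 nt) stood at 397 TPM in leaf, at 61.8 TPM in stem and at 2.71 TPM in root, from 943, 182 and 12 counts. Its ratios were 9.14 to stem (7.79 to 10.8) and 239 to root (136 to 464). Root levels differed widely among the abundant members. The third by leaf level, of 526 nt, stood at 375 TPM in leaf, at 94.3 TPM in stem and at 40.7 TPM in root, and the seventh had 48.3 TPM in root, the highest root level of any member. The member with the most counts, of 3337 nt, had 2676 in leaf, 1127 in stem and 467 in root. It alone held 8.99% of the leaf counts of the members, and the 10 most counted held 41.9%.

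Leaf levels of the members spanned 4.98 to 697 TPM with a median of 28.3 TPM, and 21 of the 109 stood at 100 TPM or more. In stem the median was 6.62 TPM (0.790 to 241 TPM), and 72 members (66.1%, against 96.3% of the 6402 unigenes) were at 5 TPM or more there. In root the median was 1.06 TPM (0 to 48.3 TPM). There, 14 members (12.8%, against 79.8%) were at 5 TPM or more and 51 (46.8%, against 7.03%) lay under 1 TPM. The rule asked for stem and root levels well below leaf, so these gaps describe the selection. Another 1462 unigenes were 4-fold over root but under 4-fold over stem. Of those, 30.6% were at 5 TPM or more in root and 27.3% under 1 TPM. Every member had stem counts, as did all of the 6402 unigenes. The share of members among the unigenes with 50 or more leaf counts was larger at higher leaf levels. It was 0.303% (6 of 1981) under 10 TPM in leaf, 1.74% (49 of 2821) from 10 to 30 TPM, 2.57% (33 of 1286) from 30 to 100 TPM and 6.69% (21 of 314) at 100 TPM or more. The rule itself used the leaf count, so these shares describe the members and test nothing. None of the 100 most counted unigenes, which were left out, would have passed both folds: the largest ratio of leaf to stem among them was 3.56, in a unigene with a ratio of leaf to root of 38.1.

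Many members stood close to the 4-fold threshold over stem when counting error is considered. The whole 95% interval of leaf over stem lay above 4 in 48 of the 109 members. Over the 6402 unigenes it did so in 49 (0.765%), of which 48 were the members. It lay above 2 in all 109, which the fold and count floor of the rule nearly ensure. For leaf over root the whole interval lay above 4 in 106 members, against 20.7% over the 6402. The members were selected on these ratios, so the shares are a description only. Both intervals lay above 4 in 45 members. This went with the number of reads: the interval of leaf over stem lay above 4 in 21 of the 25 members with 300 or more leaf counts, in 16 of the 41 with 100 to under 300, and in 11 of the 43 with 50 to 99. A further 148 unigenes with 50 or more leaf counts were not members although both of their intervals reached 4 or more. At this depth the edge of the group is therefore soft on both sides.

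**Figure D3:**
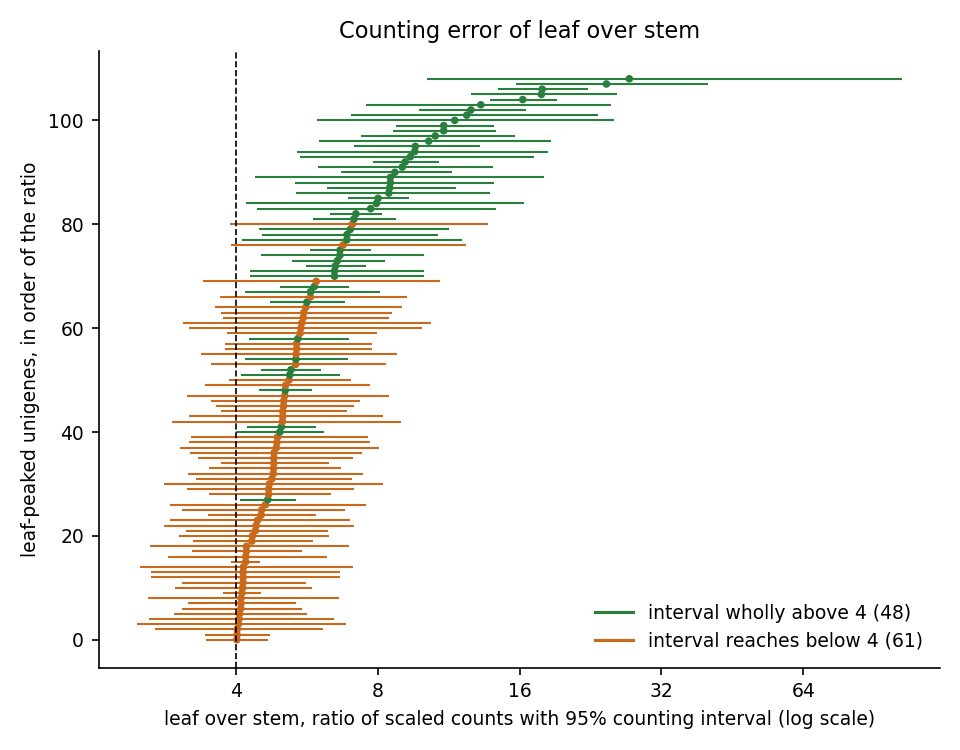
Ratio of leaf to stem with its exact 95% counting interval (horizontal, log scale) for the 109 leaf-peaked unigenes, in order of the ratio. The interval lies wholly above 4 in 48 members (green) and reaches below 4 in 61 (orange), most of them with a ratio under 6.

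Just inside the threshold for stem, 3 members had ratios of 4.01, 4.02 and 4.02, the first with 564 counts in leaf, 248 counts in stem and 233 counts in root. Just outside it, 3 unigenes had ratios of 3.99, 3.98 and 3.97, the first with 217 counts in leaf, 96 counts in stem and 6 counts in root. A ratio of leaf to stem between 3 and 4 together with 4-fold over root was found in 127 unigenes, more than the members themselves. For root, the lowest ratios among the members were 4.42, 4.65 and 5.35. Only 6 unigenes were 4-fold over stem but not over root, with ratios of leaf to root of 1.08 to 3.43. One of these, of 2251 nt, had 188 counts in leaf, 30 counts in stem and 452 counts in root, which gave a ratio of 11.1 to stem and of 1.26 to root. At the count floor, the lowest members had 50, 53 and 54 leaf counts, and unigenes with 49, 48 and 47 passed both folds but were left out. A total of 93 unigenes with 20 to 49 leaf counts passed both folds.

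The order of stem and root was not set by the rule, which asked only that both lie 4-fold or more below leaf. The scaled count in stem was above that in root in 105 of the 109 leaf-peaked unigenes (96.3%), against 56.1% of the 6402 unigenes with 50 or more leaf counts. Stem was 4 times root or more in 79 members (72.5%, against 19.8%) and 16 times root or more in 42 (38.5%, against 9.56%). The whole counting interval of stem over root lay above 1 in 101 members (92.7%, against 44.9%) and above 4 in 52 (47.7%, against 15.9%). The median ratio of stem to root was 12.9 in the members (9.76 with root counts of 0 set at 3) and 1.11 in the 6402. These values use the same stem and root libraries as the rule, with 1 library each, and carry no test. The ratio was set beside that of the 1462 other unigenes that were 4-fold over root but under 4-fold over stem in leaf. Stem lay above root in every one of those, because the criteria force it. Their median ratio of stem to root was 10.3 with root counts of 0 at either value, below the 12.9 of the members but above their 9.76. Stem was 4 times root or more in 72.5% of the members and 78.2% of those others, and 16 times or more in 38.5% and 39.0%. The interval lay above 1 in 92.7% of the members and 99.8% of the others, and above 4 in 47.7% and 65.0%. Since the criteria for those others also set a floor on their ratio of stem to root, this comparison cannot show whether the members differ from them.

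**Figure D4:**
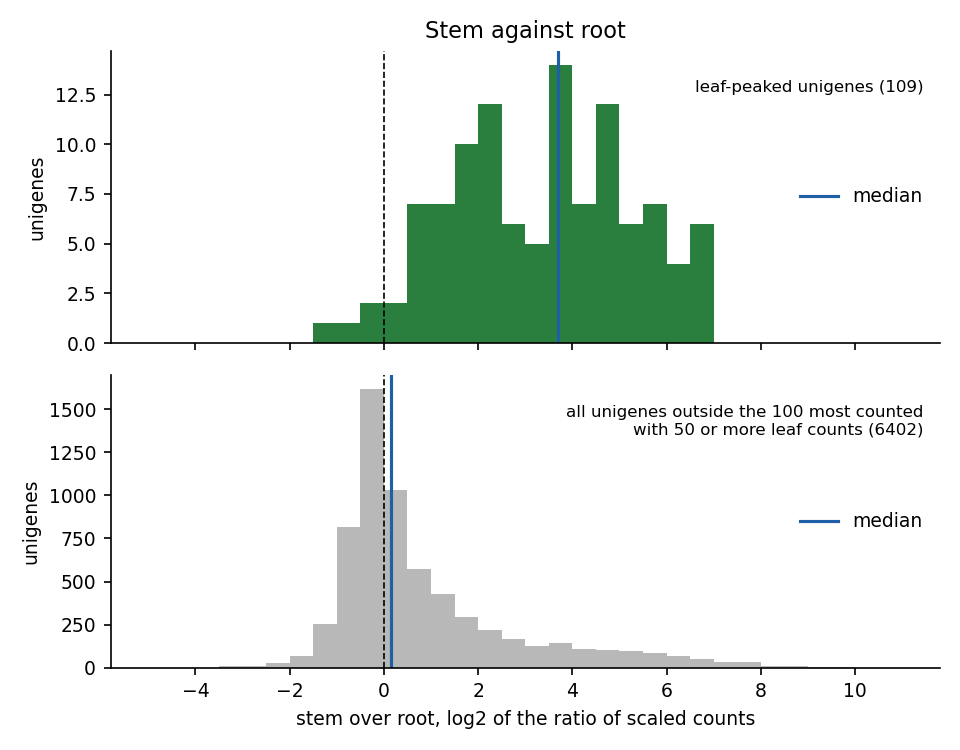
Distribution of the log2 ratio of stem to root (horizontal; unigenes per bin, vertical) in the 109 leaf-peaked unigenes (top) and in all 6402 unigenes with 50 or more leaf counts outside the 100 most counted (bottom), with a dashed line at equality and a blue line at the median. The members lie almost wholly to the stem side, with a median ratio of 12.9 against 1.11.

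The members with the firmest excess of stem over root were Unigene51538 and Unigene43322. Unigene51538, described above, had a ratio of stem to root of 48.1 with a lower bound of 31.8. Unigene43322 (837 nt) stood at 204 TPM in leaf, at 72.4 TPM in stem and at 2.12 TPM in root, from 517, 227 and 10 counts. Its ratio of stem to root was 39.1 with a lower bound of 20.9, and its ratio of leaf to stem was 4.02 (3.43 to 4.72). Both were thus near the threshold against stem in scaled counts and under 4-fold over stem in TPM. In either shoot organ both stood far above root.

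In 4 members root lay above stem. For 2 of these (1.83% of the members) the whole interval did, against 29.7% of the 6402 unigenes. Unigene63935 (1664 nt) had 493 counts in leaf, 69 counts in stem and 274 counts in root, or 86.8 TPM, 9.79 TPM and 25.9 TPM. Its ratio of stem to root was 0.434 (0.328 to 0.567), so stem was its lowest organ. It was 12.6-fold higher in leaf than in stem (9.78 to 16.5) and 5.47-fold higher than in root (4.71 to 6.36). Unigene35407 (2173 nt) had 330 counts in leaf, 67 counts in stem and 227 counts in root, with a ratio of stem to root of 0.508 (0.381 to 0.670). Its ratio of leaf to root, 4.42 (3.72 to 5.25), was the lowest among the members. The other two had ratios of stem to root of 0.895 and 0.779 with intervals that spanned 1. The unigene numbered just after the first of these, of 669 nt, had 52 counts in leaf, 21 counts in stem and 46 counts in root and missed membership by its ratio of leaf to root of 3.43.

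Root signal was close to the limit of detection in many members. No root count was recorded for 11 members, and 25 had 1 to 3, so that 36 (33.0%) had 3 or fewer, against 3.59% of the 6402 unigenes and 13.3% of the 1462 other unigenes 4-fold over root. The rule asked for a root level 4-fold or more below leaf, so the gap to the 6402 describes the selection. The 1462 others met the same criterion over root, and why their root counts were higher was not tested. A count of 0 in root allowed a scaled count of up to 0.689 CPM. The 11 members without a root count had 50 to 113 counts in leaf and 4 to 37 in stem. Set against 3 counts in root, they were at least 50.6-fold to at least 114-fold higher in leaf than in root. The median scaled count in leaf was similar in the members and in the 1462 other unigenes, at 78.9 and 75.4 CPM. Their median in root was 1.84 CPM in the members and 5.98 CPM in the other unigenes. Their medians in stem, 14.3 and 53.4 CPM, differ by construction, since the sets were split on the ratio of leaf to stem.

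Among the members, those with more reads in leaf had more in stem. Spearman's rho across the 109 members was 0.894 for the scaled counts of leaf and stem, 0.526 for leaf and root and 0.564 for stem and root. Over the 6402 unigenes these were 0.727, 0.275 and 0.576. Each coefficient runs across unigenes counted in the same 3 libraries, longer unigenes give more reads in all of them, and the rule ties the stem and root counts to the leaf count from above. The ratio of leaf to stem itself showed little relation to the leaf level within the members, with a rho of 0.145.

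Leaf-peaked unigenes were shorter at the median than all unigenes of like leaf count. Their median length was 1348 nt (364 to 6139 nt), against 1836 nt over the 6402 unigenes and 1536 nt over the 1462 other unigenes 4-fold over root. Over 1000 nt lay 81 of the 109 members (74.3%), against 85.5% of the 6402, and over 2000 nt lay 22 (20.2%), against 43.2%. Within classes of leaf count the medians were 1248 nt in the members against 1882 nt in all unigenes at 50 to 99 counts, 1263 nt against 1819 nt at 100 to under 300, and 1503 nt against 1654 nt at 300 or more. The 1462 others had medians of 1528 nt, 1584.5 nt and 1498 nt in these classes, so members were not shorter than them at 300 or more. Within classes of leaf TPM the gap to all unigenes was smaller and not in 1 direction. Under 10 TPM the median was 3008 nt in the 6 members against 2885 nt in all unigenes. The medians were 1521 nt in the members against 1649 nt from 10 to 30 TPM, 995 nt against 1120 nt from 30 to 100 TPM, and 1305 nt against 1138 nt at 100 TPM or more. Length was not used by the rule, but the floor on counts admits short unigenes only at higher levels.

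**Figure D5:**
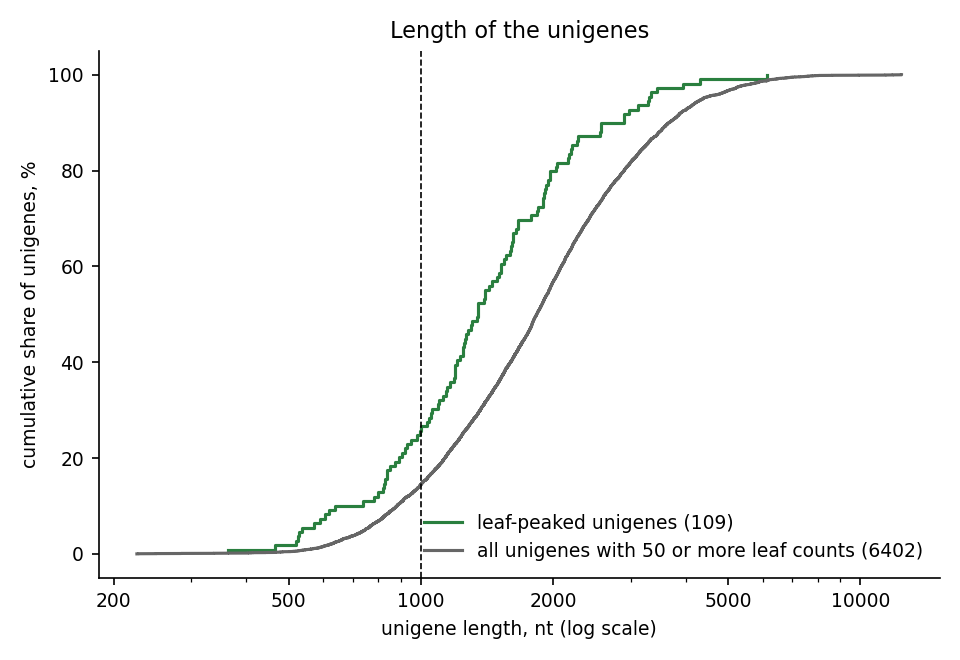
Cumulative share of unigenes (vertical, %) by unigene length (horizontal, nt, log scale) for the 109 leaf-peaked unigenes (green) and the 6402 unigenes with 50 or more leaf counts (grey), with a dashed line at 1000 nt. The curve of the members lies to the left, with a median of 1348 nt against 1836 nt.

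The ratio of stem to root differed with length within the members. It had a median of 24.2 in the 28 members under 1000 nt and 4.72 in the 22 of 2000 nt or more. The fall was not steady, since the median was 7.67 from 1500 to 2000 nt and lower still from 1000 to 1500 nt. Under 1000 nt and at 2000 nt or more, the 1462 other unigenes 4-fold over root had medians of 12.2 and 8.46. All unigenes of those lengths had 1.16 and 1.04. Spearman's rho of length with the ratio of stem to root was -0.254 across the members, -0.0911 across those 1462 others and -0.121 across the 6402 unigenes. The ratio of leaf to stem showed no such relation, with a rho of 0.0162 across the members and medians of 5.06, 5.49, 5.30 and 4.75 in those under 1000 nt, from 1000 to 1500 nt, from 1500 to 2000 nt and of 2000 nt or more. The shortest member, of 364 nt, stood at 144 TPM in leaf, at 15.5 TPM in stem and at 2.20 TPM in root, from 105, 14 and 3 counts. The longest, of 6139 nt, stood at 8.49 TPM in leaf, at 2.87 TPM in stem and at 1.75 TPM in root, from 193, 81 and 74 counts.

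ID numbers were not used by the rule, and 8 of the 109 members (7.34%) formed 4 pairs of consecutive numbers, which assembly may give to pieces or variants of 1 locus. The share was 8.55% (13 of 152) among the unigenes peaked in stem by the same rule and 24.3% (199 of 820) among those peaked in root. At equal depth, described below, it was 6.61% (8 of 121) in leaf, 3.92% (4 of 102) in stem and 27.2% (121 of 445) in root. Such a share can vary with the size of a set, and why these shares differ was not tested. One pair was Unigene45818 and Unigene45819. A second pair was alike in all organs, with 729 and 773 counts in leaf, 246 and 292 in stem and 20 and 17 in root. Another pair was alike at a low level, with 66 and 54 counts in leaf, 10 and 12 in stem and 5 and 4 in root. In the last pair the level differed widely, with ratios of leaf to stem of 4.11 and 6.87. Unigene51538 had 1497 counts in leaf and 642 in stem, and the 619 nt unigene numbered before it had 113 in leaf, 29 in stem and 0 in root. Of the 210 other unigenes next to a member in number, 34 had 50 or more leaf counts outside the 100 most counted. Leaf was at least 2 times stem in 9 of these (26.5%), against 11.9% of all 6402 unigenes, and at least 4 times root in 8 (23.5%), against 24.5%. The median ratio of leaf to stem of these 34 neighbours was 1.17, against 1.01 over the 6402. Members were taken out of the neighbours beforehand, so none of the 34 could pass both folds, whereas the 6402 include the members. These values therefore cannot show how often neighbours share a profile.

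Beside the 109 unigenes peaked in leaf, the same rule applied to the other organs gave 152 peaked in stem and 820 peaked in root. Of the unigenes with 50 or more counts in the organ concerned, these made up 1.70% in leaf, 1.26% of 12018 in stem and 4.92% of 16658 in root. A floor of 50 counts is a higher scaled count in leaf, the shallowest library, than in stem or root. Reads of the deeper libraries were then thinned, in a single random draw, to the 1432056 counts of leaf. That draw gave 121 peaked in leaf, 102 peaked in stem and 445 peaked in root, and the spread between draws was not measured. The shares were then 1.89% in leaf, 1.49% in stem and 6.56% in root. The numbers peaked in leaf and in stem changed order at equal depth, while the share was larger in leaf than in stem at both depths, and root had the largest number and share at both. Of the 121 leaf-peaked unigenes at equal depth, 99 were among the 109 described above.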

How the data were processed

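Per the labels' protocols, RNA from each tissue was captured on oligo(dT) beads and made into strand-specific libraries. The submitters' processing notes name Trimmomatic and RSEM without a version, and neither assembler nor aligner is stated in the labels. Per the file headers, every deposited table lists a length, an effective length, an expected count and a TPM per unigene. All deposited expected counts were whole (100% in each library) and were used as such, so whether near-identical unigenes share reads is unknown. Deposited TPM values are the authors' and were used for levels and, in 1 alternative, as the scale. The library totals were 3490670 (leaf), 4469828 (stem) and 10045956 (root).

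Ratios of scaled counts carry exact conditional (Clopper-Pearson) 95% intervals, computed in Python 3.11.15 (pandas 2.3.3, numpy 2.4.6, scipy 1.17.1; figures with matplotlib 3.10.9) and tested on simulated counts. With 1 library per tissue no test between tissues was made. TMM factors (edgeR 4.0.16) and DESeq2 1.42.0 size factors under R 4.3.3 were used as alternative scales alone. The membership rule and all classes were chosen with earlier results of these data known. The unigenes named are the 2 with the largest lower bound against both organs, the 2 of highest leaf TPM, and the 2 each way with the largest bound between stem and root.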

Additional observations from a re-analysis of the deposited data

How the results depend on the processing

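The number of leaf-peaked unigenes followed the scale and thresholds. It was 114 with TMM factors, 119 with DESeq2 size factors, 84 with only the 10 most counted unigenes left out and 121 after thinning, but 48 on library totals and 40 on deposited TPM, all of them among the 109. Log2 ratios of leaf to stem shifted by -0.46 on library totals and, at the median, by -0.51 on deposited TPM. A leaf floor of 1, 10, 20 or 100 counts gave 1898, 338, 202 or 66 unigenes, folds of 2 and 8 gave 712 and 22, and whole intervals beyond 4-fold gave 45. The share with stem above root was 100% on deposited TPM and at 8-fold, and 73.0% with a floor of 1 count. The share over 1000 nt was 82.5% on deposited TPM, and 8.01%, 43.2% and 60.4% with floors of 1, 10 and 20 counts, since lower floors admit short unigenes. The share in consecutive pairs ran from 6.61% to 13.3% and stayed within its exact binomial interval under all 14 alternatives. That interval, 3.22% to 13.95% on 8 of 109 members, is wide. Of 98 values recomputed, 46 stayed within their limits (1.5 times for counts, the exact binomial interval for shares) and 52 moved, 36 of these being shares of library counts, whose intervals are very narrow. With a single library per organ there was no replicate to leave out. No paired analysis was possible because there is 1 library for each organ.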
